A study of Homo sapiens with 6 samples.

Results

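The genes described here are 10 of the 57316 gene names in the count tables. They are SPP1, which encodes the secreted matrix phosphoprotein osteopontin, CD44, which encodes a cell surface receptor for hyaluronan and osteopontin, and 8 genes of integrin chains: ITGAV, ITGB1, ITGB3, ITGB5, ITGA4, ITGA5, ITGA6 and ITGA9. They were taken by name, as osteopontin, its receptors and related matrix receptors. The cells were THP-1, a human line of monocytic leukaemia, and all of them had received the phorbol ester PMA at 100 ng/ml for 48 h, which gives them macrophage features. In the CXCL10 group, 3 libraries came from cells then exposed to recombinant human CXCL10, a chemokine that binds CXCR3, at 100 ng/ml for 24 h. In the control group, 3 libraries came from cells given the control solution for the same time. The question was what this chemokine does to macrophage transcripts. Both groups hold the replicate numbers 1, 3 and 4. THP-1 is a single cell line, so the libraries carry no differences between donors, and since nothing states that they came from separate cultures, every p-value here describes the spread between these libraries, which could be technical.

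Integrins are cell surface receptors made of an alpha and a beta chain, and the pair decides which matrix protein is held. Osteopontin carries an arginine-glycine-aspartate motif that is bound by integrins with the alpha V chain (paired with beta 1, beta 3 or beta 5) and by alpha 5 beta 1, and a neighbouring site that is bound by alpha 4 beta 1 and alpha 9 beta 1, while alpha 6 beta 1 is a laminin receptor. Macrophages are a main source of osteopontin at sites of inflammation, and they use CD44 and these integrins to attach and migrate.

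The CXCL10 libraries held 34782380 to 41023583 reads assigned to genes and the controls 36022874 to 38879308. A level given with ± is a mean and SD over 3 libraries, and a log2 fold change given with ± has its standard error (SE). Control replicate 4 stood apart: on the first principal component, with 44.2% of the variance, it lay at 66.6 and the other 5 libraries between -19.6 and -6.11. Most of 7 macrophage markers were high, with a summed level from 3251 to 3687 TPM with CXCL10 and from 3404 to 4223 TPM in controls. TPM was computed from the counts as a level per length of exon, scaled to the same sum in every library. Over the 6 libraries CSF1R averaged 871 TPM and CD14 461 TPM. As scaled counts (CPM), CSF1R averaged 1543 with CXCL10 and 1496 in controls, and CD14 238 with CXCL10 and 283 in controls. Their log2 fold changes were 0.04 ± 0.12 and -0.25 ± 0.16 (edgeR, unadjusted p = 0.713 and 0.145). TYROBP, an adaptor of myeloid cells, measured 506, 371 and 378 CPM with CXCL10 and 523, 474 and 857 CPM in controls, with overlap. Control replicate 4 was its highest library. Its log2 fold change was -0.56 ± 0.20 (edgeR, unadjusted p = 0.0149, adjusted p = 0.683). ITGAM and CD163 were higher with CXCL10, without overlap, with log2 fold changes of 0.32 ± 0.13 and 0.29 ± 0.14. Of the 6 tested macrophage markers, 3 lay above 0 and 3 below. The part of TYROBP in the results was not tested. CD68 had only 0 to 5 reads per library, but 85.6% of its exon length is shared with other annotated genes, where the counting left reads out. Osteoclasts, which are known for alpha V beta 3, were checked by 6 marker genes. Their summed level ran from 52.8 to 69.5 TPM with CXCL10 and from 53.6 to 63.1 TPM in controls. CALCR, which defines mature osteoclasts, had 0 reads, while the other 5 had enough reads to be tested. The highest were DCSTAMP at 33.5 TPM, CTSK at 11.6 TPM and OCSTAMP at 11.1 TPM over the 6 libraries. In scaled counts (CPM) OCSTAMP was lower with CXCL10, without overlap, at 6.48 ± 0.924 against 9.07 ± 0.764 in controls. Its log2 fold change was -0.49 ± 0.18 (edgeR, unadjusted p = 0.0168, adjusted p = 0.683). It was 1 of the 5 tested markers without overlap, where 12.2% of all tested genes had none. The 5 did not share a direction. CTSK and OSCAR had log2 fold changes above 0, at 0.27 ± 0.23 and 0.30 ± 0.40, and the other 3 lay below 0. Fibroblast markers summed to between 0.932 and 1.64 TPM over all libraries, B cell markers to between 1.94 and 2.84 TPM and T cell markers to between 0.387 and 0.810 TPM. LUM, MS4A1 and CD2 were at 0. Epithelial and endothelial markers stayed at or below 0.250 TPM in sum, with EPCAM and KRT5 at 0.

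In the hg38 annotation of the count tables the genes are spread over several chromosomes. The ligand gene SPP1 lies at chr4:87975650-87983426 and CD44 at chr11:35138870-35232402, both on the plus strand. Of the beta chains, ITGB1 lies at chr10:32900318-33005792 and ITGB5 at chr3:124761948-124901418 on the minus strand, and ITGB3 at chr17:47253846-47311816 on the plus strand. Of the alpha chains, ITGAV (chr2:186590056-186680901), ITGA4 (chr2:181457202-181538940) and ITGA6 (chr2:172427354-172506459) share the plus strand of 1 chromosome, ITGA9 lies at chr3:37452115-37823507 on the plus strand and ITGA5 at chr12:54395261-54419266 on the minus strand. Reads were counted over all exons of each gene, UTRs included.

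To show the start regions of the most abundant transcript of the set and of its leading alpha chain, the promoter sequences of SPP1 and ITGA5 are given from RefSeq (GRCh38.p14), 250 bases before to 50 after the annotated gene start, 5′ to 3′ on the gene's strand. The SPP1 stretch lies at chr4:87975464-87975763 on the plus strand and the ITGA5 stretch at chr12:54419217-54419516 on the minus strand. The SPP1 start in the count tables, 87975650, lies inside its stretch, upstream of the RefSeq start used here. Capitals mark matches on either strand to any of 6 motifs that were searched, whose letters follow the sequences.
SPP1: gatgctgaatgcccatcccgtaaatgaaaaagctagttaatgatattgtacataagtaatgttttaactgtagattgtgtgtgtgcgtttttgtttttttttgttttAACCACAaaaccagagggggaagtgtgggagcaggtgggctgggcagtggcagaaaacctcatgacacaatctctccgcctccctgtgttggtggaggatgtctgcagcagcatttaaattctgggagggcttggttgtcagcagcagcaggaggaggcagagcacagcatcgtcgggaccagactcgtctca
ITGA5: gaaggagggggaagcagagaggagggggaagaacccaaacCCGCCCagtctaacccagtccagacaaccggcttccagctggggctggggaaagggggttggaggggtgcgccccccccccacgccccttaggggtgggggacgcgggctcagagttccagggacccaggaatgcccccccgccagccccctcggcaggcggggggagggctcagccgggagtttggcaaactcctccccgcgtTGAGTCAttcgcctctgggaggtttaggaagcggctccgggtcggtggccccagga
The SPP1 stretch held 1 match, to the RUNX motif AACCACA, at 143 bases before the start, and 4.27% of the 35116 promoters in the table hold that motif. The ITGA5 stretch held the AP-1 motif TGANTCA, whose pattern is its own reverse complement and was counted once, at 6 bases before the start (7.71% of promoters), and on the other strand a GC box, GGGCGG, at 210 bases before it (45% of promoters). Neither stretch matched the PU.1 motif GAGGAAGT, which 2.59% of promoters hold. Nor was there a match to the TATA box letters TATAAA, held by 4049 of these promoters, or to the CCAAT box, searched as CCAAT and held by 34.6%. SPP1 had 6 CpG pairs in these 300 bases and ITGA5 had 16, against a median of 14 over the table. None of the matches overlap. A match describes the letters only, and with PMA in all 6 libraries the data hold no comparison that bears on AP-1, which PMA is known to activate.

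SPP1 stood far above its receptors in every library. Per length it ranked 3 among all genes, after the ferritin light chain gene FTL and the mitochondrial gene MT-CO2, with 23340.0 ± 4001 TPM with CXCL10 and 21819.6 ± 1529 TPM in controls. The groups are compared further below in scaled counts (CPM), where the SPP1 mean was lower with CXCL10 (17345 against 18172 in controls). The receptor genes followed in a broad range. Over all 6 libraries ITGA5 averaged 310.0 TPM, ITGB5 296 TPM, CD44 111 TPM, ITGB1 81.5 TPM, ITGAV 42.2 TPM, ITGA6 20.3 TPM, ITGA4 15.2 TPM, ITGB3 1.58 TPM and ITGA9 0.574 TPM. Per length of exon, osteopontin RNA was thus 59.0 to 86.8 times the level of ITGA5, the highest of these 8 integrin chains. It was 177 to 226 times that of CD44 on this length.

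**Figure D1:**
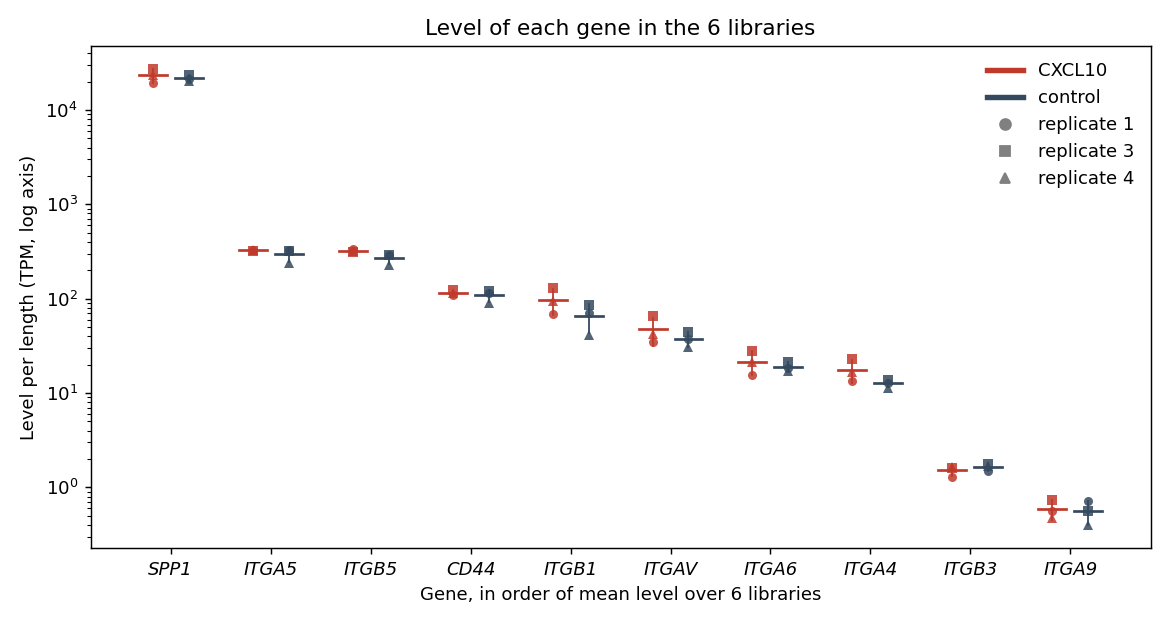
Level of each of the 10 genes in TPM on a log axis, with CXCL10 libraries in red left of control libraries in grey; markers show the replicate number, horizontal lines the group mean and vertical lines 1 SD (n = 3 each). SPP1 lies near 23340 TPM with CXCL10 and 21820 TPM in controls, ITGA5 and ITGB5 follow at about the same level, and ITGB3 and ITGA9 lie lowest.

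Neighbours in this order were compared within each library by an exact two-sided sign-flip permutation test over the 6 libraries, adjusted over the 9 neighbouring pairs. The order was taken from the same 6 libraries, so the p-values describe only how consistently each ratio kept its direction across them. An error in the length of a gene is shared by all 6 libraries and does not enter the p-values. In 7 pairs the higher gene was higher in 6 of 6 libraries (exact p = 0.0313, the smallest that 6 libraries can give, adjusted p = 0.0402). ITGA5 and ITGB5 did not differ beyond their spread: ITGA5 was the higher of the pair in 5 of 6 libraries, the ratio ran from 0.975 to 1.13, and the exact adjusted p was 0.0938. CD44 and ITGB1 overlapped too, with CD44 higher in 5 of 6 libraries, a ratio from 0.943 to 2.21 and an exact adjusted p of 0.0703. The place of ITGA4 depends on the length used: the exons in the count tables sum to 10654 bases for it and its longest principal transcript in GENCODE 29 has 4189 bases. With transcript lengths ITGA4 (13.0 CPM per kilobase, where CPM are counts scaled to the same library total) passed ITGA6 (8.17 CPM per kilobase), while the other 8 genes kept their places. ITGA6 over ITGA4 was 1 of the 7 pairs above, so its order turned with the length used.

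Among the 5 alpha chains of the set, ITGA5, the alpha chain of the classical fibronectin receptor, dominated. It held 83.6%, 73.2% and 80.4% of their summed level per length in CXCL10 replicates 1, 3 and 4 and 82.6%, 80.1% and 79.9% in control replicates 1, 3 and 4. CXCL10 replicate 3 had the lowest share, and the groups overlapped. ITGAV, the alpha chain of the vitronectin and osteopontin receptors, came next with 11.3% ± 3.17 with CXCL10 and 10.2% ± 0.842 in controls. ITGA6, of laminin receptors, held 5.17% ± 1.20 with CXCL10 and 5.26% ± 0.593 in controls. ITGA4, whose protein binds VCAM1, fibronectin and osteopontin, held 4.26% ± 0.945 with CXCL10 and 3.51% ± 0.315 in controls. ITGA9, of a further osteopontin receptor, held 0.143% ± 0.0284 with CXCL10 and 0.151% ± 0.0248 in controls.

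Among the 3 beta chains, ITGB5, which pairs only with alpha V, was the most abundant and ITGB3, the chain of the osteoclast and platelet receptors, was nearly absent. ITGB5 held 82.6%, 70.5% and 77.2% of their summed level in CXCL10 replicates 1, 3 and 4 and 80.1%, 77.1% and 84.1% in control replicates 1, 3 and 4. ITGB1, the shared partner of alpha 4, alpha 5, alpha 6, alpha 9 and alpha V, held 22.9% ± 6.05 with CXCL10 and 19.1% ± 3.62 in controls. ITGB3 held 0.319%, 0.362% and 0.395% with CXCL10 and 0.411%, 0.470% and 0.623% in controls. All 3 CXCL10 libraries lay below all 3 controls in the ITGB3 share (CXCL10 minus control -0.143 percentage points, exact two-sided permutation p = 0.1, the smallest that 3 against 3 allows, adjusted p = 0.8 over the 8 shares of both classes). None of the other 7 shares had an exact p under 0.2, and their adjusted p-values were 0.8 and 0.9. ITGB3 is undercounted: 51.6% of its exon length lies in exons of AC068234.1, an annotated gene on the same strand, where reads fit both genes and were left out, and AC068234.1 itself had 0 reads. Per length of the unshared exons ITGB3 reached 1.11 CPM per kilobase and 0.882% of the 3 beta chains, which left its place in the order as it was.

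**Figure D2:**
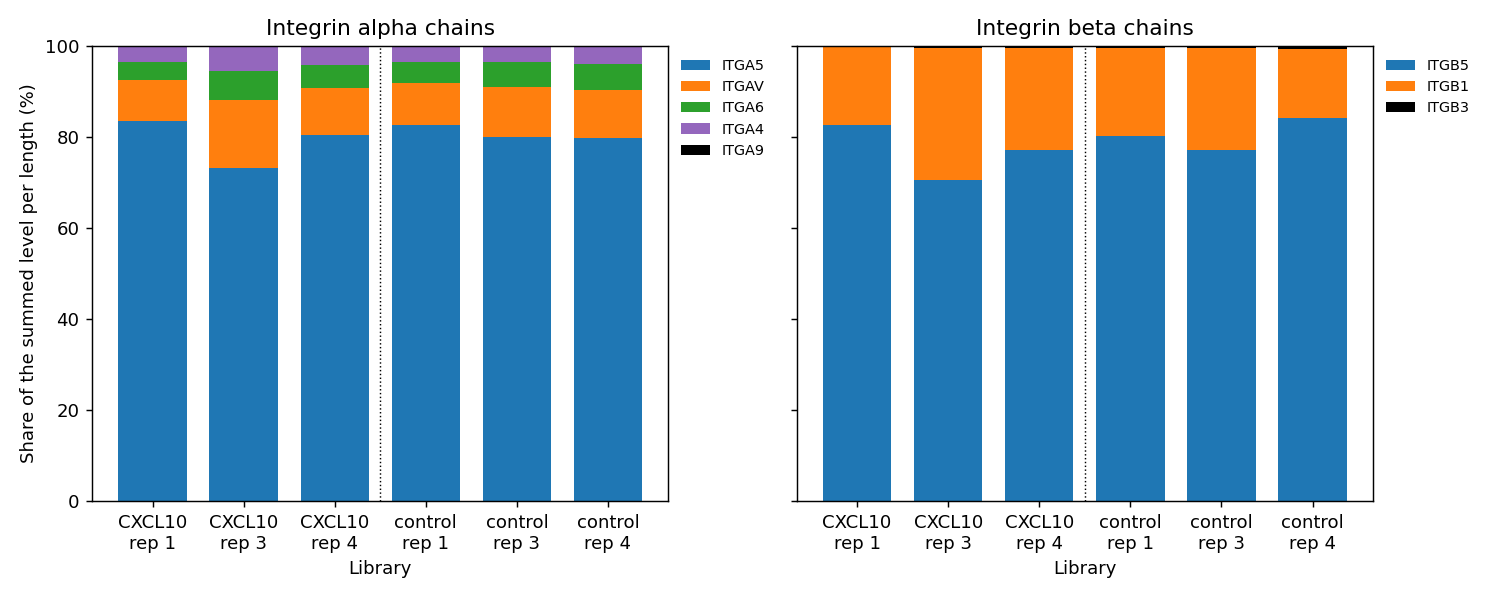
Share in percent of the summed level per length held by each alpha chain (left panel) and each beta chain (right panel) of the set, 1 bar per library, with CXCL10 libraries left of the dotted line and controls right of it. ITGA5 and ITGB5 fill most of every bar, from 73.2% to 83.6% and from 70.5% to 84.1%, and CXCL10 replicate 3 has the lowest share of both.

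Chains that form 1 receptor were not at matching levels. ITGA5 pairs only with beta 1, yet its level per length was 4.72, 2.46 and 3.54 times that of ITGB1 in CXCL10 replicates 1, 3 and 4 and 4.64, 3.75 and 5.75 times in control replicates 1, 3 and 4. ITGB5 pairs only with alpha V, and its level was 9.68, 4.83 and 7.61 times that of ITGAV in CXCL10 replicates 1, 3 and 4 and 7.85, 6.64 and 7.39 times in control replicates 1, 3 and 4. In each library the partner that also joins other chains was therefore the lower transcript. For neither ratio was the difference between the groups larger than the spread between libraries. The log2 difference was -0.43 for ITGA5 over ITGB1 (exact two-sided permutation p = 0.3, adjusted p = 0.9 over 6 ratios) and -0.04 for ITGB5 over ITGAV (exact p = 0.9, adjusted p = 1). RNA levels do not give the amount of protein pairs on the surface.

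No difference between the groups passed the test in any of the 10 genes. The quasi-likelihood test of edgeR, with p-values adjusted by the Benjamini-Hochberg method over all 16531 tested genes, called 0 of the 10, and it called 0% of all tested genes at 0.05. At an unadjusted p under 0.05 it counted 0 of the 10, where the share over all tested genes was 7.14%, and DESeq2 and limma-voom also called 0 and counted 0 at that level. In 0 of the 10 did all CXCL10 libraries lie on one side of all controls in CPM scaled by edgeR's TMM factors, where 12.2% of all tested genes did. The fitted log2 fold changes were above 0 for 5 genes and below 0 for 5, with a median of 0.00 beside 0.02 over all tested genes. The adjusted p-values ran from 0.702 to 0.995. In this fit of all 6 libraries, all 10 had a 95% interval inside -1 to 1 on the log2 scale, as did 74.4% of all tested genes. A change of that size is outside the interval for each in this fit. Without control replicate 3 ITGB1 came to 0.62 ± 0.22, so its bound depends on the libraries used. In bulk RNA, fewer cells that express a gene and less RNA per cell cannot be told apart.

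**Figure D3:**
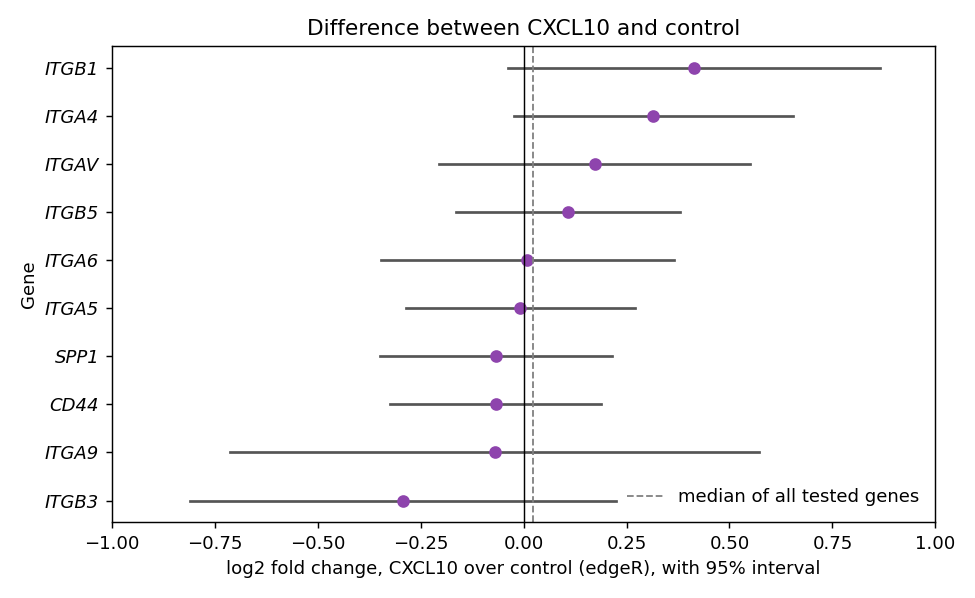
Fitted log2 fold change of CXCL10 over control (points) with its 95% interval (lines) for the 10 genes, with the median of all tested genes as a dashed line. All 10 intervals include 0; the highest value is 0.41 for ITGB1 and the lowest -0.29 for ITGB3.

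The ligand SPP1 measured 15067, 19027 and 17943 CPM in CXCL10 replicates 1, 3 and 4, against 17208, 18578 and 18731 CPM in control replicates 1, 3 and 4. CXCL10 replicates 1 and 3 were the lowest and the highest of the 6 libraries, so the groups overlapped fully. On the log2 scale the fold change was -0.07 ± 0.13 (SE; edgeR, adjusted p = 0.930), with a 95% interval from 0.785-fold to 1.16-fold, and it was 0.02 without CXCL10 replicate 1 and 0.02 when scaled by library size alone. CD44, one of its receptors, was the steadiest of the set, with 368, 369 and 370 CPM with CXCL10 and 397, 406 and 357 CPM in controls. Its highest library was 1.14 times its lowest, where the median over the 8754 genes with a mean of at least 10 CPM was 1.41. CD44 had a fitted log2 value of -0.07 ± 0.12 (edgeR, adjusted p = 0.921), or 0.01 when scaled by library size alone.

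ITGB1 and ITGA4 had the highest fitted values of the set. ITGB1 measured 140, 235 and 183 CPM in CXCL10 replicates 1, 3 and 4, against 147, 175 and 97.3 CPM in control replicates 1, 3 and 4. CXCL10 replicate 1 lay below control replicates 1 and 3, and control replicate 4 was lowest. The log2 fold change of ITGB1 was 0.41 ± 0.21 (edgeR, unadjusted p = 0.0699, adjusted p = 0.702). Leaving out control replicate 4 gave 0.21, leaving out CXCL10 replicate 3 gave 0.22 and leaving out control replicate 3 gave 0.62. ITGA4 measured 48.2, 74.2 and 58.0 CPM with CXCL10 and 47.7, 49.5 and 47.9 CPM in controls, which lay close together. CXCL10 replicate 1 lay among the controls and the other 2 CXCL10 libraries above them. The log2 fold change of ITGA4 was 0.32 ± 0.16 (edgeR, unadjusted p = 0.0653, adjusted p = 0.702), or 0.18 with the length trend of each library removed. It was 0.14 without CXCL10 replicate 3 (edgeR, unadjusted p = 0.299) and 0.45 without CXCL10 replicate 1 (edgeR, unadjusted p = 0.00835, adjusted p = 0.369). In that last fit 12.3% of all tested genes had an unadjusted p under 0.05. In ITGA4, 14.8% of the exon length lies opposite exons of CERKL, which had 1 to 24 reads per library.

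The alpha V receptors showed no difference beyond the spread. ITGAV measured 95.7, 161 and 113 CPM with CXCL10 and 106, 123 and 99.1 CPM in controls, and CXCL10 replicates 1 and 3 were its lowest and highest libraries. Fitted as log2, CXCL10 over control came to 0.17 ± 0.18 (edgeR, adjusted p = 0.846), and to -0.06 without CXCL10 replicate 3. ITGB5 measured 735, 617 and 682 CPM with CXCL10 and 658, 649 and 581 CPM in controls, and CXCL10 replicate 1 was highest. Its fitted log2 value was 0.11 ± 0.13 (edgeR, adjusted p = 0.868), and 0.03 with the length trend of each library removed. ITGB3 had 71 to 92 reads per CXCL10 library and 88 to 101 per control library. That is 1.91, 2.13 and 2.36 CPM with CXCL10 and 2.28, 2.67 and 2.90 CPM in controls, and the overlap rested on CXCL10 replicate 4, which lay above control replicate 1. The log2 value of -0.29 ± 0.24 (edgeR, adjusted p = 0.806) has a 95% interval from 0.570-fold to 1.17-fold.

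The remaining alpha chains lay near 0. ITGA5 measured 812, 711 and 796 CPM with CXCL10 and 839, 806 and 687 CPM in controls, with a log2 fold change of -0.01 ± 0.13. ITGA6 measured 35.2, 56.3 and 46.3 CPM with CXCL10 and 42.6, 49.2 and 45.2 CPM in controls, with a log2 fold change of 0.01 ± 0.17. ITGA9, at 1.56, 1.86 and 1.26 CPM with CXCL10 and 2.04, 1.59 and 1.29 CPM in controls, had -0.07 ± 0.30. CXCL10 and control libraries interleaved in all 3 genes, and the sign of each value turned in at least 3 of 16 other settings. The adjusted p-values of the 3 genes in edgeR were 0.995, 0.995 and 0.971. ITGA9 had 43 to 80 reads per library, and 6.47% of its exon length lies opposite ITGA9-AS1, which had 15 to 34 reads.

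The spread between libraries was not alike in all 10 genes. CXCL10 replicate 3 was the highest library for 5 of the 10 genes (SPP1, ITGAV, ITGB1, ITGA4 and ITGA6). CXCL10 replicate 1 and control replicate 4 were the lowest for 4 each. ITGB1 had the widest range, with its highest library at 2.42 times its lowest, followed by ITGAV at 1.68, ITGA9 at 1.62 and ITGA6 at 1.60 times. In CXCL10 replicate 3, ITGB1, ITGAV, ITGA4 and ITGA6 lay 0.58, 0.49, 0.47 and 0.31 above their own 6-library mean on the log2 scale, while ITGA5 and ITGB5 lay 0.12 and 0.08 below theirs (-0.12 and -0.08). In control replicate 4, ITGB1 lay at -0.69 and ITGA5 and ITGB5 at -0.17 each. The part of depth or RNA quality in these library differences was not tested.

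**Figure D4:**
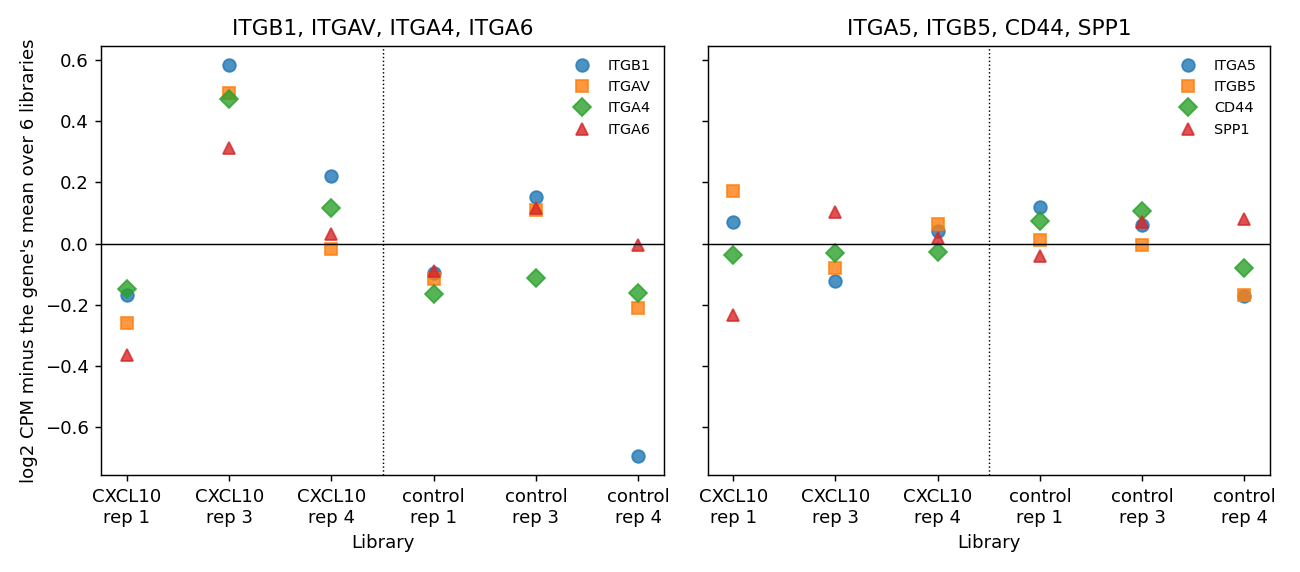
Deviation of log2 CPM from each gene's mean over the 6 libraries, for ITGB1, ITGAV, ITGA4 and ITGA6 (left panel) and ITGA5, ITGB5, CD44 and SPP1 (right panel); CXCL10 libraries lie left of the dotted line and controls right of it. In the left panel CXCL10 replicate 3 stands highest for all 4 genes, from 0.31 to 0.58, and in the right panel all values lie between -0.23 and 0.17.

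Set among all annotated integrin chains, these receptors share the cell with the leukocyte integrins. ITGB2, the beta chain of leukocyte integrins, held 79.5% ± 1.02 of the summed level of 8 beta chains with CXCL10 and 81.2% ± 2.49 in controls. ITGB5 was second with 11.0%, 10.8% and 10.6% in CXCL10 replicates 1, 3 and 4, against 11.4%, 11.3% and 11.2% in control replicates 1, 3 and 4. These ITGB5 shares did not overlap between the groups, and the permutation test, exact and two-sided, gave p = 0.1, its smallest value. The same unadjusted p was reached by the shares of ITGB3 among the 8 beta chains and of ITGAM, ITGA7 and ITGAE among the 18 alpha chains, and no adjustment was made over these shares. ITGB7, another partner of alpha 4, came next with 6.36% ± 1.31 with CXCL10 and 4.70% ± 1.80 in controls, and ITGB1 held 3.28% ± 1.10 with CXCL10 and 2.69% ± 0.636 in controls. Of the 18 alpha chains ITGA5 was first, with 35.7% ± 1.92 with CXCL10 and 38.4% ± 1.86 in controls. The leukocyte chains ITGAL, ITGAX and ITGAM followed, with 18.8%, 18.3% and 10.7% with CXCL10 and 18.2%, 17.9% and 9.16% in controls. ITGA3 averaged 23.9 TPM over the 6 libraries, ITGAE 13.4 TPM, ITGA7 12.9 TPM, ITGA2 3.08 TPM, ITGA1 2.92 TPM and ITGA11 2.11 TPM, and the other chains were under 1 TPM. The counting left out reads in 42.3% of the exon length of ITGB7, which overlaps ZNF740, and its share was computed without them.

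edgeR called 0 of the 17 tested alpha chains and 0 of the 7 tested beta chains. Over the whole table the number of called genes was 0 in edgeR, with 1181 genes (7.14%) at an unadjusted p under 0.05, 0 in DESeq2, with 1211, and 0 in limma-voom, with 1182. With library quality weights limma-voom called 42 genes, none of them among the 10. At an unadjusted p under 0.05 edgeR counted 3 alpha chains, where ITGAM and ITGA7 had log2 fold changes of 0.32 ± 0.13 and 0.37 ± 0.15 and ITGAE -0.40 ± 0.16, and 1 beta chain, ITGB7, with 0.59 ± 0.27. ITGAM measured 178, 176 and 183 CPM with CXCL10 and 147, 157 and 125 CPM in controls, without overlap. ITGB7 measured 282, 201 and 340 CPM with CXCL10 and 219, 233 and 93.6 CPM in controls, where control replicate 4 was far below the rest. The median log2 fold change was 0.10 over alpha chains and 0.11 over beta chains, beside 0.02 over all tested genes.

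Other ligands of these receptors were also transcribed, all far below SPP1. FN1, which encodes fibronectin, averaged 122 TPM over the 6 libraries, LAMC1, a laminin chain gene, 74.7 TPM, and THBS1, which encodes thrombospondin 1, 57.9 TPM. FN1 measured 718 ± 85.7 CPM with CXCL10 and 698 ± 41.9 CPM in controls. LAMC1 measured 218 ± 19.9 CPM with CXCL10 and 210 ± 14.4 CPM in controls, and THBS1 184 ± 37.1 CPM with CXCL10 and 175 ± 12.3 CPM in controls. Their fitted log2 values lay between 0.04 and 0.07. VTN, the vitronectin gene, had 0 to 7 reads and VCAM1 0 to 2 reads per library. edgeR called 0 of 13 tested matrix ligand genes, with a median log2 fold change of 0.13 beside 0.02 over all tested genes. Of the 13, 1 had an unadjusted p under 0.05, where the share over all tested genes was 7.14%. This was VWF, the gene of von Willebrand factor, named after its value was seen. It had 2.69 ± 0.665 CPM with CXCL10 against 1.61 ± 0.492 CPM in controls (edgeR, unadjusted p = 0.0300). The relatives of SPP1 in the same gene family were low: DMP1 averaged 5.09 TPM and MEPE 2.81 TPM over the 6 libraries. edgeR called 0 of the family's 5 tested genes, SPP1 among them, and counted 0 at an unadjusted p under 0.05. The family's median log2 fold change was 0.21.

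Of the genes around CD44 and hyaluronan, 0 of 13 tested were called and 0 had an unadjusted p under 0.05 in edgeR, and their median log2 fold change was 0.00. MSN, which encodes moesin, a link between CD44 and actin, was the highest at 376 TPM over the 6 libraries, ahead of its relative EZR (ezrin) at 142 TPM. MSN measured 796, 786 and 874 CPM with CXCL10 and 708, 784 and 597 CPM in controls, without overlap, and its log2 value was 0.23 ± 0.13 (edgeR, unadjusted p = 0.103). EZR measured 158 ± 18.4 CPM with CXCL10 and 161 ± 6.41 CPM in controls. CD74, whose protein forms a receptor for the cytokine MIF with CD44, measured 177 ± 26.1 CPM with CXCL10 and 177 ± 8.04 CPM in controls. The hyaluronan synthase genes were low, with HAS2 at 0 to 2 reads, HAS1 at 0 to 12 reads and HAS3 at 21 to 57 reads per library. HAS3 had 1.33 ± 0.311 CPM with CXCL10 and 0.868 ± 0.273 CPM in controls, with overlap (edgeR, unadjusted p = 0.119).

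Integrin activators and adaptors were 22 tested genes, 0 of them called, with a median log2 fold change of 0.11 beside 0.02 over all tested genes. FERMT3, which encodes the leukocyte kindlin, led them at 611 TPM over the 6 libraries, and measured 638 ± 70.8 CPM with CXCL10 and 630 ± 86.6 CPM in controls. RAP1A, of a GTPase that activates integrins, measured 444 ± 52.5 CPM with CXCL10 and 441 ± 16.2 CPM in controls. TLN1, the talin 1 gene, measured 683 ± 89.9 CPM with CXCL10 and 560 ± 95.3 CPM in controls, with a log2 value of 0.29 ± 0.15 (edgeR, unadjusted p = 0.0828). Among the 22, only APBB1IP, which encodes the RAP1 effector RIAM, was counted at an unadjusted p under 0.05. It measured 183, 169 and 195 CPM with CXCL10 and 153, 165 and 128 CPM in controls. The log2 value was 0.29 ± 0.13 (edgeR, unadjusted p = 0.0450). Integrin inactivation and traffic held 9 tested genes, 0 of them called, with a median of -0.11 beside 0.02 over all tested genes. At an unadjusted p under 0.05, 2 of the 9 were counted, both lower with CXCL10. The share over all tested genes was 7.14%, and 768 of those 1181 genes were lower. Of the 2 listed genes, ITGB1BP1, which encodes an inhibitor that binds the beta 1 tail, measured 154, 168 and 160 CPM with CXCL10 and 193, 185 and 224 CPM in controls. These groups did not overlap, 33.1% of the exon length is shared with ASAP2, and the log2 fold change was -0.32 ± 0.13 (edgeR, unadjusted p = 0.0244, adjusted p = 0.683). FLNA, the filamin A gene, measured 89.8, 70.8 and 60.4 CPM with CXCL10 and 88.1, 84.9 and 111 CPM in controls, with overlap. Its log2 fold change was -0.36 ± 0.16 (edgeR, unadjusted p = 0.0432). Control replicate 4 was the highest library for ITGB1BP1 and FLNA and the lowest for APBB1IP. SNX17 measured 155 ± 14.4 CPM with CXCL10 and 153 ± 12.1 CPM in controls, with a log2 value of 0.01 ± 0.13. DOK1 measured 68.2 ± 7.63 CPM with CXCL10 and 75.5 ± 0.992 CPM in controls, with -0.15 ± 0.13. With ITGB1BP1 they were the 3 highest genes of this list in TPM. APBB1IP and FLNA were singled out after their values were seen.

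The 3 genes whose course over the 6 libraries was most like that of SPP1 were ASNSD1, EID1 and VDAC3. Their centred log2 CPM differed from that of SPP1 by a root mean square of 0.03 each, where the median over 8753 genes with a mean of at least 10 CPM was 0.20. SPP1 itself varied by a root mean square of 0.11 around its mean. EID1 measured 253, 308 and 302 CPM with CXCL10 and 288, 297 and 309 CPM in controls.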

How the data were processed

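The deposited tables, 1 per library, give raw read counts by gene name. The authors ran featureCounts 2.0.6 on exons of GENCODE 30, per the file headers. Trim Galore, STAR and Subread are named without versions, and the genome build as hg38, in the submitters' processing notes. Libraries were made from polyadenylated RNA with a stranded kit, per the labels' protocols. The command line in the headers sets paired mode without pair counting, so both mates of a fragment count: 66.8% to 75.8% of the counts from 1 to 20 were even. It sets no strand and leaves out reads over 2 genes or several places, which lowers overlapping genes. No normalization had been applied, and no 2 libraries were identical.

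From these counts, edgeR 4.0.16 in R 4.3.3 tested 16531 genes (filterByExpr, TMM factors, quasi-likelihood fit with group as the only term, 6 libraries, Benjamini-Hochberg adjustment, threshold 0.05). Standard errors were derived from each F statistic and log2 fold change. CPM uses TMM-scaled totals. TPM and shares use the exon length in the tables and no TMM factor, so groups are compared in CPM. Single values were compared by exact two-sided permutation tests over libraries (scipy 1.17.1). The edgeR test was checked on simulated counts, which held no outlying library such as control replicate 4. Same-numbered libraries did not deviate together (r of 0.03, 0.02 and -0.05 over genes), so the numbers were not taken as pairs.

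Gene lists are textbook groups, and the members and lists were chosen with earlier results of these data known. Named besides the 10 genes are integrin chains of at least 1 TPM, genes past the threshold or otherwise the 3 highest genes of each list, the 3 genes most like SPP1 and genes on a member's exons. VTN, VCAM1, HAS1, HAS2, HAS3, VWF, APBB1IP and FLNA were named outside this rule, after their values were seen. Nor were all of the named cell type markers chosen by this rule. Other settings were DESeq2 1.42.0 and its size factors, library size only, no filter, limma-voom (limma 3.58.1), a replicate block, removal of the length trend, halved counts and each library left out. Added after the data were seen were limma-voom with library quality weights, the length trend removed without control replicate 4, principal transcript length and unshared exon length. The low genes ITGB3 and ITGA9 had 43 to 101 reads per library.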

Additional observations from a re-analysis of the deposited data

How the results depend on the processing

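None of the 10 genes was called in any of 16 other settings. Over all genes edgeR called 137 genes with no filter on low counts and limma-voom with library quality weights called 42, and the other settings called 0. At an unadjusted p under 0.05, 1 of the 10 genes was counted with library size only (background 6.96%) and 2 each with no filter (6.64%) and with library quality weights (18.3%); leaving out a library gave 0 to 2 (3.71% to 12.3%), with the 2 found without CXCL10 replicate 1 (12.3%). These were ITGB1, ITGA4 or both. Same-numbered libraries share only a number. With a replicate block edgeR called 0 genes and counted 1 of the 10, ITGB1, at an unadjusted p of 0.0199 (background 8%), and the log2 fold change of ITGA6 was -0.0142. Genes without overlap between groups numbered 1 of 10 with the length trend removed (background 10.7%), 1 with it removed and control replicate 4 left out (17.2%), and 1 to 2 with 1 library left out (17.9% to 32.5%). Fold changes near 0 turned sign, none of them called and with the cause not tested. With library size only the log2 value was 0.0151 for SPP1, 0.0084 for CD44, 0.0659 for ITGA5 and 0.0046 for ITGA9, and the median of all tested genes was 0.10, beside 0.02 with TMM. With limma-voom it was -0.0116 for ITGA6. With the length trend removed ITGA6 had -0.0932, and with control replicate 4 also left out ITGA6 had -0.0686 and SPP1 0.0069. With 1 library left out, SPP1 ran from -0.13 to 0.0243, ITGAV from -0.0605 to 0.33, ITGA5 from -0.0856 to 0.057, ITGA6 from -0.16 to 0.17 and ITGA9 from -0.21 to 0.12. ITGB1 ran from 0.21 to 0.62, ITGA4 from 0.14 to 0.45, ITGB5 from 0.05 to 0.18, ITGB3 from -0.38 to -0.21 and CD44 from -0.12 to -0.02 there, each with 1 sign. CXCL10 minus control in a share turned sign with 1 library left out for ITGAV (-0.684 to 2.35 percentage points), ITGA5 (-4.02 to 1.15), ITGA6 (-0.691 to 0.505) and ITGA9 (-0.0226 to 0.00584).

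Shares depend on what they are taken over. With principal transcript lengths, the 6-library mean was 7.81% for ITGAV, 6.11% for ITGA4, 3.86% for ITGA6, 0.0953% for ITGA9 and 0.314% for ITGB3. With unshared exon lengths ITGB3 held 0.882%. Over all annotated chains of a class, the means were 5.002% for ITGAV, 1.80% for ITGA4, 37.1% for ITGA5, 2.42% for ITGA6, 0.0683% for ITGA9, 2.99% for ITGB1, 0.0604% for ITGB3 and 11.0% for ITGB5. Ratios between genes also depend on the length used. With principal transcript lengths SPP1 was 149 to 190 times CD44, and ITGB5 was 6.15 to 12.3 times ITGAV. ITGA5 over ITGB1 then ran from 2.57 to 6.01. A coding length from RefSeq proteins was not run, as no protein table was used here.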
